A study of Mus musculus with 4 samples.

Results

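The genes described are 37 cell cycle genes, chosen by name: 11 that act in S phase, when DNA is copied, 23 that act in G2 and mitosis (G2/M), the D-type cyclins Ccnd1 and Ccnd2, and the Cdk inhibitor Cdkn1c. All 37 are among the 32286 features counted. They were followed in single-cell RNA-seq of cerebellar cells from mouse embryos at E15.5, sorted for the red reporter tdTomato (tdT). Control embryos were Ptf1aCre/+; R26LSL-tdT/+, and En1/2 CKO embryos were Ptf1aCre/+; En1lox/lox, En2lox/lox; R26LSL-tdT/+, so that both genotypes carried the Cre and the reporter and only the mutants carried floxed alleles. Cre from Ptf1a, a gene needed for the GABAergic neurons of the cerebellum, switches on tdT and, in mutants, removes the Engrailed genes En1 and En2 in the same lineage. Each genotype had 2 libraries, each made from pooled embryos whose number is not given in the labels, so a p-value measures the spread between pools. Values listed for 4 libraries stand in the order control replicate 1, control replicate 2, En1/2 CKO replicate 1, En1/2 CKO replicate 2.

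A dividing cell makes D-type cyclins in G1, switches on replication genes through E2F transcription factors at entry into S phase, and then accumulates the mitotic genes, whose promoters are held by the DREAM complex in resting cells and opened by B-MYB and FOXM1 in G2. Cdk inhibitors such as Cdkn1c stop cyclin-Cdk kinases and accompany exit from the cycle. In the embryonic cerebellum, radial progenitors of the ventricular zone divide and give rise to Ptf1a-positive precursors, which leave the cycle and become Purkinje cells first and inhibitory interneurons later, while granule cell precursors divide in the outer layer.

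Promoters of 28 members were matched by symbol in the RefSeq table for GRCm38.p6, 8 of S phase genes and 20 of G2/M genes, each as a window from 250 bases before to 50 bases after the annotated start. An E2F site, written as TTTCCCGC, TTTCGCGC, TTTGCCGC or TTTGGCGC on either strand, was found in 4 of the 8 S phase genes (50%), in 1 of the 20 G2/M genes (5%) and in 2.61% of 27025 genes. A CHR element, the letters TTTGAA or TTCGAA on either strand, was found in 14 of the 20 G2/M genes (70%), 2 of the 8 S phase genes (25%) and 21.7% of all genes. A CCAAT box on either strand was found in 85% of the G2/M genes, 87.5% of the S phase genes and 41.1% of all genes, and CHR and CCAAT occurred together in 70% of the G2/M genes and 8.61% of all genes. A match of letters describes the window and is not a shown binding site. Matches of different motifs were counted separately, and 2 E2F matches on opposite strands overlap in Mcm5 and in Mcm6, where they stand in capitals as 1 run.

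The windows upstream of 5 members show the difference between the phases. They are printed from 250 bases before the start up to the start, 5′ to 3′ on the gene's strand in GRCm38, with E2F, CHR and CCAAT matches in capitals. Mcm5 (chr8:75109259-75109508, plus strand) and Mcm6 (chr1:128359706-128359955, minus strand), subunits of the helicase that unwinds DNA for replication, hold E2F matches and CCAAT boxes. Ccnb2 (chr9:70421555-70421804, minus strand), a mitotic cyclin, and Top2a (chr11:99024190-99024439, minus strand), the topoisomerase that untangles chromosomes, hold CHR elements and several CCAAT boxes. Cdk1 (chr10:69352913-69353162, minus strand), the kinase that drives mitosis, is the G2/M gene that holds all 3 kinds.
Mcm5: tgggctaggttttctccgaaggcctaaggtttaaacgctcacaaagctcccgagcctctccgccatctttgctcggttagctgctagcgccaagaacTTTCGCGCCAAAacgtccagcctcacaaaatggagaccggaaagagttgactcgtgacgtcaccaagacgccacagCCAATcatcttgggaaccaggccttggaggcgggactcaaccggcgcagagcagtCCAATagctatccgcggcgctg
Mcm6: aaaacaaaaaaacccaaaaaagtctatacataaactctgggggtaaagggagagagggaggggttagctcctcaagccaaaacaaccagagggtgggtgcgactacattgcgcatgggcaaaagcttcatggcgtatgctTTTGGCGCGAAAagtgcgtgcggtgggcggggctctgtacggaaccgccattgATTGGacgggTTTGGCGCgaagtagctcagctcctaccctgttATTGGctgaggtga
Ccnb2: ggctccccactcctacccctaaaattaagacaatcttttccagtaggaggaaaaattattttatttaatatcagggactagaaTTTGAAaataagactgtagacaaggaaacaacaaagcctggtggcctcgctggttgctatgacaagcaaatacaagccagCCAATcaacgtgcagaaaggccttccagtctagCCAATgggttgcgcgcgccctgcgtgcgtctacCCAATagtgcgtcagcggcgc
Cdk1: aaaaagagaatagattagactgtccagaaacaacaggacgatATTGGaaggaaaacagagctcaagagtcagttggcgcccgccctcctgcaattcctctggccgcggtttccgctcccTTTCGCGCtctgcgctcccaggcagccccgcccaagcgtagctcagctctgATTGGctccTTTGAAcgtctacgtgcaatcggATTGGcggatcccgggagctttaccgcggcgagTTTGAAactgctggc
Top2a: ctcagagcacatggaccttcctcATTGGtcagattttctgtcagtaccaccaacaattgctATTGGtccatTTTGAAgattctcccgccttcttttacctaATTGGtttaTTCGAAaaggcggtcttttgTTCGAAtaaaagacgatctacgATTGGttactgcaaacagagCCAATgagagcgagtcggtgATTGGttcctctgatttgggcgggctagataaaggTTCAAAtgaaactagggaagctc

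Library quality differed. The libraries held 4619 to 11513 barcodes and 5305154 to 21021428 UMIs, and between 25.5% (control replicate 2) and 94.6% (control replicate 1) of barcodes passed the filters. The median mitochondrial share of UMIs before filtering, a sign of damaged cells, was 13.4% in control replicate 2 and 3.15%, 5.88% and 4.46% in control replicate 1 and the mutants. The filters and doublet removal left 9487, 1134, 4893 and 7300 cells with median UMI counts of 1186, 2432, 2173 and 1110. Between 41 and 76 barcodes of a library also occurred in another. Cells were grouped in 19 clusters with cell cycle genes left out of the genes used for clustering, and clusters were named from marker lists. Purkinje-like cells numbered 945, 27, 422 and 437, interneuron-like cells 3588, 103, 703 and 1020, and progenitor-like cells 3251, 442, 2445 and 2578. The 27 Purkinje-like cells of control replicate 2 held 75414 UMIs in all, so that 1 UMI there is worth 13.3 CPM (UMIs per 1000000 UMIs of the class) and a count of 0 allows up to 39.8 CPM. Progenitor-like cells joined radial progenitor-like clusters (6, 7 and 9) and Ptf1a progenitor-like clusters (0 and 2). Cluster 0, led by Neurog1, Ccnd2, Nhlh1, Lhx1 and Lhx5, took other names under other clusterings. En2, 1 of the deleted genes, was at 91.3, 55.7, 29.3 and 15.3 CPM in progenitor-like cells, and was lower in both mutant libraries in Purkinje-like and interneuron-like cells too. En1 did not separate the genotypes, and a 3′ count can include transcripts that lack the deleted part. The sort did not remove every other cell: microglia-like, erythroid-like and granule lineage-like clusters were present. Cluster 12 was led by Olig1 and Olig2, with 3 of 6 oligodendrocyte lineage markers raised, but also by Bcan and Slc6a11, which astroglia express, so it is called by its number.

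Most of the cell cycle genes marked the dividing clusters and were low in Purkinje-like and interneuron-like cells. Racgap1 did not follow this in cluster 1, which is interneuron-like, where it was at 91.3, 53.7, 105 and 103 CPM. In cluster 2, which is Ptf1a progenitor-like, it was at 57.0, 49.8, 60.4 and 80.9 CPM. Cluster 1 had 25 cells in control replicate 2. Cdkn1c and Ccnd2 also departed from it and are described with the D-type cyclins. In each of the 4 libraries, 34 of the 37 genes had a higher level in progenitor-like than in Purkinje-like cells, including all 11 S phase genes and 20 of the 23 G2/M genes, and for 29 of 37 the lowest progenitor-like library lay above the highest Purkinje-like library. The median ratio of the class means was 4.43, with 3.58 over the S phase genes and 5.11 over the G2/M genes. Classes are clusters of the same cells, so these levels are a description without a test. Averaged over the 4 libraries, 18 of the 37 genes were highest in radial progenitor-like cells, 7 in cluster 12, 6 in granule lineage-like, 3 in Ptf1a progenitor-like and 2 in erythroid-like cells, and 1 in microglia-like cells. The erythroid-like rank of Ccne2 (4.06, 82.6, 20.1 and 8.07 CPM) rests on control replicate 2, with 45 such cells. That of Mcm4 (44.7, 66.1, 141 and 52.9 CPM) rests on mutant replicate 1, with 67.

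**Figure D1:**
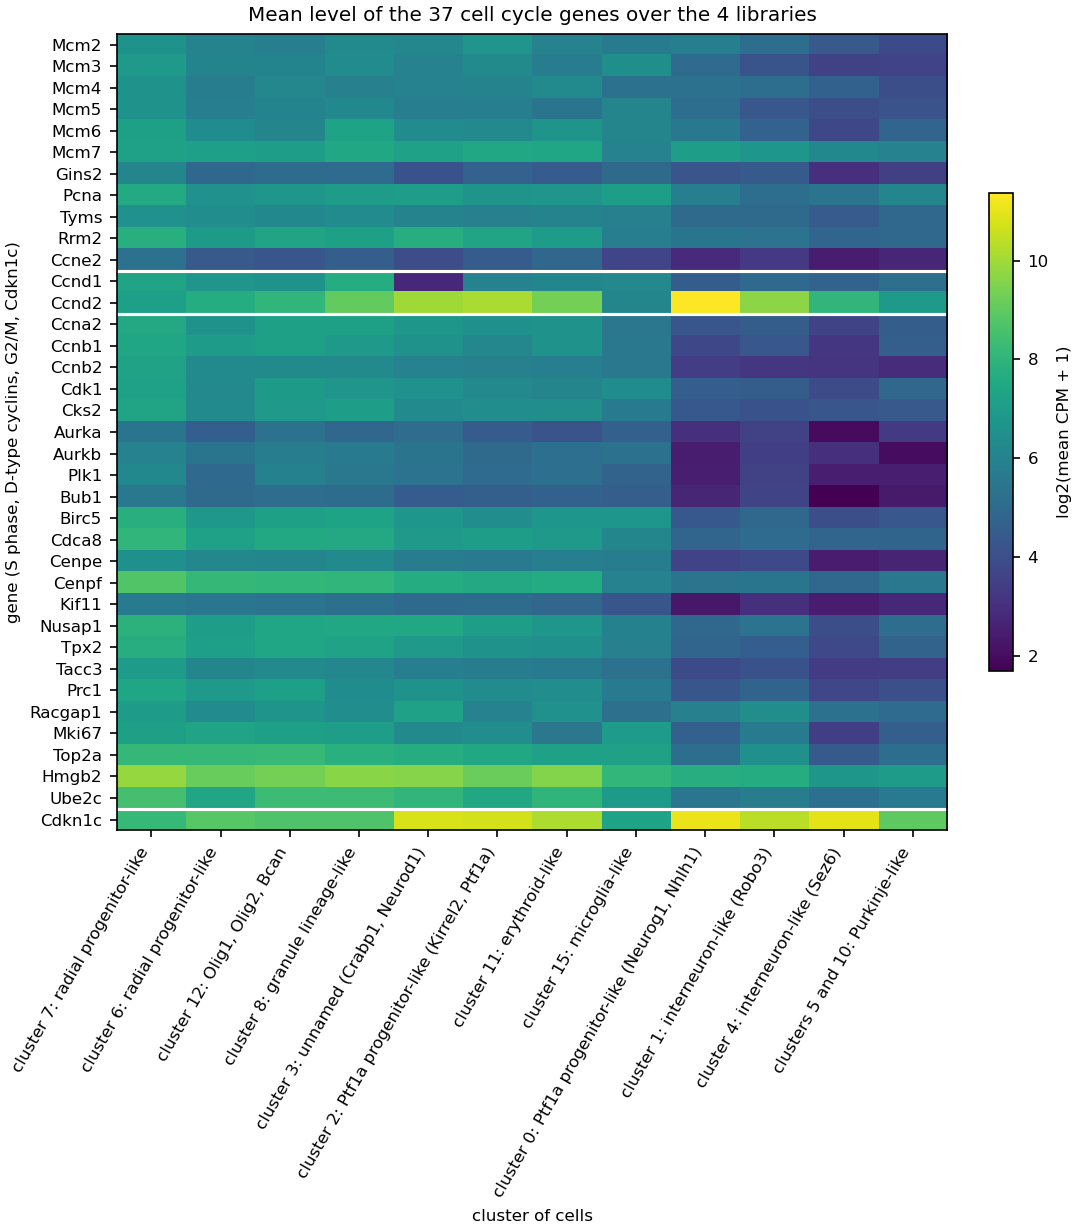
Heat map of the mean level of each cell cycle gene (rows) in clusters of cells (columns), as log2(mean CPM + 1) over the 4 libraries. White lines part the S phase genes, the D-type cyclins, the G2/M genes and Cdkn1c, and most rows darken from the radial progenitor-like clusters on the left to the neurons on the right, while Ccnd2 and Cdkn1c are brightest in Ptf1a progenitor-like or interneuron-like clusters.

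The replication genes had the smaller steps between classes. Mcm6, a helicase subunit, was at 74.3, 88.0, 86.1 and 83.6 CPM in progenitor-like cells and at 25.7, 53.0, 12.4 and 20.4 CPM in Purkinje-like cells. All 4 progenitor-like values lay above all 4 Purkinje-like values. Mcm2, Mcm3 and Mcm4, of the same helicase ring, had class means 5.57, 6.06 and 4.21 times as high in progenitor-like as in Purkinje-like cells, while the ratio for Mcm7 was 2.36. Pcna, the sliding clamp that holds polymerases on DNA, had the lowest ratio of all, 1.62, with 70.7, 165, 110 and 106 CPM in progenitor-like and 49.99, 133, 44.7 and 51.0 CPM in Purkinje-like cells. Its progenitor-like value exceeded the Purkinje-like value within every library, but across libraries the classes overlapped, with control replicate 2 high in both. Tyms, which makes thymidylate, and Rrm2, the regulated subunit of ribonucleotide reductase, had ratios of 2.14 and 4.47. Gins2, a helicase cofactor, and Ccne2, a cyclin of S phase entry, were scarce, with progenitor-like means of 34.7 and 21.6 CPM.

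The mitotic genes differed more. Ccnb2 was at 64.5, 74.3, 78.2 and 84.5 CPM in progenitor-like cells and at 13.2, 0, 2.48 and 10.2 CPM in Purkinje-like cells, a ratio of means of 11.6. Aurkb, the kinase of the chromosomal passenger complex, had a ratio of 11.9, and its partners Birc5 and Cdca8 had ratios of 5.71 and 5.45. Cenpe, a kinetochore motor, stood at 10.7. These ratios rest on few UMIs in Purkinje-like cells, where Ccnb2, Aurkb, Plk1 and Cenpe had no UMI in control replicate 2. Top2a was at 129, 218, 217 and 210 CPM in progenitor-like and at 25.0, 79.6, 7.44 and 29.3 CPM in Purkinje-like cells. Mki67, which coats mitotic chromosomes and is a common marker of proliferation, was at 123, 63.6, 121 and 103 CPM in progenitor-like cells and at 11.8, 66.3, 7.44 and 7.65 CPM in Purkinje-like cells. With Cdk1 and Aurka it was 1 of the 3 G2/M genes that were not higher in progenitor-like cells in every library. For Mki67 the order was reversed in control replicate 2, which had few Purkinje-like UMIs. Hmgb2, a chromatin protein abundant in cycling cells, stayed measurable in neurons, at 96.3, 212, 63.3 and 152 CPM in Purkinje-like cells against 274, 694, 693 and 658 CPM in progenitor-like cells.

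Within the progenitor-like clusters the genes followed a gradient. Summed over the 23 G2/M genes, cluster 7, a radial progenitor-like cluster with Sox9, Fabp7 and Id3 among its leading genes, had 4275, 3889, 5260 and 5271 CPM, and cluster 6, led by Gdf10 and Slc1a3, had 2356, 4095, 2680 and 2643 CPM. Cluster 2, which expressed Ptf1a and Kirrel2, had 1750, 2486, 2496 and 2972 CPM, and cluster 0, with Neurog1 and Nhlh1, had 820, 561, 607 and 704 CPM. Cluster 0 was below cluster 2, and cluster 2 below cluster 7, in every library. Cells of cluster 7 were deeper, with a median UMI count 2.81 times that of their libraries; values at equal depth are given with the shares of positive cells. The S phase sum ran from 1521, 1328, 1181 and 1244 CPM in cluster 7 through 707, 1106, 958 and 932 CPM in cluster 2 to 516, 489, 427 and 569 CPM in cluster 0, and cluster 6, at 711, 961, 906 and 678 CPM, lay below cluster 2 in 3 of the 4 libraries. Purkinje-like cells had G2/M sums of 510, 1021, 232 and 567 CPM and interneuron-like cells 689, 385, 438 and 763 CPM. Both were below the barcodes that failed the filters, which hold damaged cells and free RNA, at 946, 1309, 751 and 1338 CPM in the same libraries. The S phase sums of both neuron classes were likewise below those of the failed barcodes in each library, at 296, 411, 211 and 250 CPM in Purkinje-like cells against 373, 474, 380 and 503 CPM. Cluster 0 was also below the failed barcodes in its G2/M sum in each library, but above them in its S phase sum. Free RNA of dividing cells and transcription of these genes in neurons therefore cannot be told apart at these levels. The same holds for the G2/M genes in cluster 0.

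**Figure D2:**
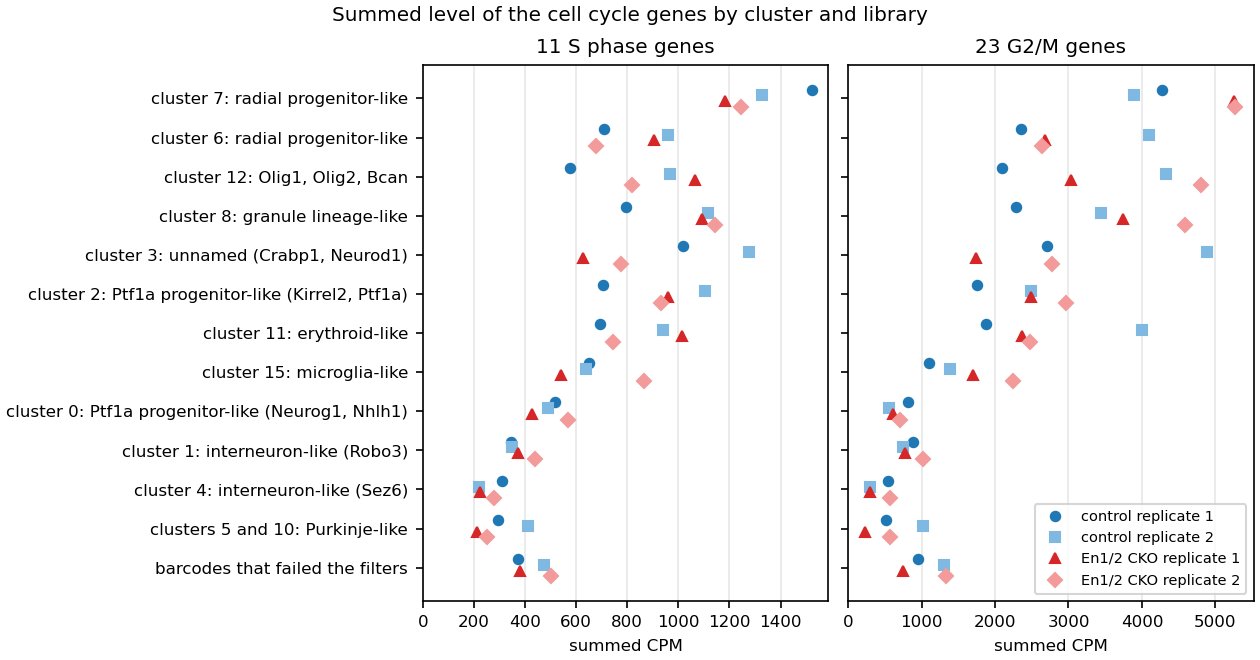
Summed level of the 11 S phase genes (left) and the 23 G2/M genes (right), in CPM, for each cluster or class (rows) and library (markers). The 4 libraries of cluster 7 lie between 3889 and 5271 CPM for G2/M, and Purkinje-like cells lie between 232 and 1021 CPM, below the failed barcodes of the same library.

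The D-type cyclins differed between the progenitor-like clusters. Ccnd2 was highest in cluster 0, at 1316, 4198, 2447 and 2589 CPM, and was at 202, 197, 114 and 130 CPM in radial progenitor-like cells. Every cluster 0 value lay above every radial value. Cluster 0, where Ccnd2 was highest, had the lowest G2/M sums among the progenitor-like clusters, and Ccnd2 was also at 510, 1262, 917 and 632 CPM in cluster 1, an interneuron-like cluster led by Robo3. The G2/M sums of cluster 1, at 878, 752, 777 and 1014 CPM, were above those of cluster 0 in every library. Its S phase sums, at 344, 349, 373 and 439 CPM, were below those of cluster 0. Ccnd2 is a leading gene of cluster 0 and was left out of the clustering. Ccnd1 ran the other way: 113, 127, 130 and 120 CPM in radial progenitor-like cells, 27.1, 35.8, 12.4 and 14.2 CPM in cluster 0, and highest in granule lineage-like cells at 112, 189, 256 and 257 CPM. In the unnamed cluster 3, led by Crabp1 and Neurod1, Ccnd1 was at 0 to 11.1 CPM and Ccnd2 at 506 to 1864 CPM, beside G2/M sums of 2706, 4888, 1745 and 2774 CPM. Cdkn1c was at 2229, 1586, 2534 and 2212 CPM in cluster 0 and at 2143, 2254, 1554 and 1344 CPM in interneuron-like cells, against 817, 185, 232 and 255 CPM in radial progenitor-like cells. Purkinje-like cells had less, at 934, 292, 369 and 402 CPM. Control replicate 1 had the highest Cdkn1c of the 4 libraries in radial progenitor-like, Purkinje-like and granule lineage-like cells and in the failed barcodes, where it was at 1330 CPM against 616 to 791 CPM in the others. The part of free RNA in these Cdkn1c levels was not tested.

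To compare cells at equal depth, each cell was thinned to 1000 UMIs, shallower cells were left out, and a cell was called S-positive or G2/M-positive with at least 3 UMIs over the 11 S phase or the 23 G2/M genes. In radial progenitor-like cells 28.9%, 31.1%, 30.6% and 34.2% of cells were G2/M-positive (240 of 830, 59 of 190, 294 of 960 and 300 of 877 cells). The exact 95% Clopper-Pearson intervals, which cover counting error only, ran from 25.9 to 32.1% in control replicate 1 and from 31.1 to 37.5% in mutant replicate 2, and all 4 libraries' intervals overlapped. S-positive cells made up 8.43%, 13.7%, 11.7% and 11.4% of the same cells. In cluster 2 the G2/M-positive share was 14.3%, 15.8%, 16.0% and 18.9%, and in cluster 0 it was 7.33%, 3.08%, 2.45% and 5.41%, so the gradient remained at equal depth. Thinning left out 227, 39, 298 and 411 radial progenitor-like cells. Without thinning the radial shares were 32.6%, 42.4%, 38.9% and 39.9% for G2/M and 14.7%, 27.1%, 32.5% and 24.1% for S phase. The cut falls in a continuous range: 99, 15, 61 and 80 of the thinned radial cells were 1 UMI below the G2/M cut and 43, 4, 35 and 47 stood at it.

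Neurons were rarely positive. Among Purkinje-like cells 1.13%, 4.35%, 0.304% and 2.14% were G2/M-positive (9 of 798, 1 of 23, 1 of 329 and 6 of 280), and among interneuron-like cells 3.65%, 0%, 2.22% and 5.50%, where 0 of 73 cells in control replicate 2 allows up to 4.11% by the limit of 3 counts and 4.93% by the exact interval. Microglia-like cells, which do not belong to the Ptf1a lineage, had shares of 13.95%, 12.3%, 14.8% and 31.7%. Granule lineage-like cells had 19.7%, 31.5%, 21.8% and 32.3%, and cluster 12 had 17.5%, 37.5%, 24.3% and 30.1%. No share is compared between genotypes with a test, since a score over chosen genes has none here.

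**Figure D3:**
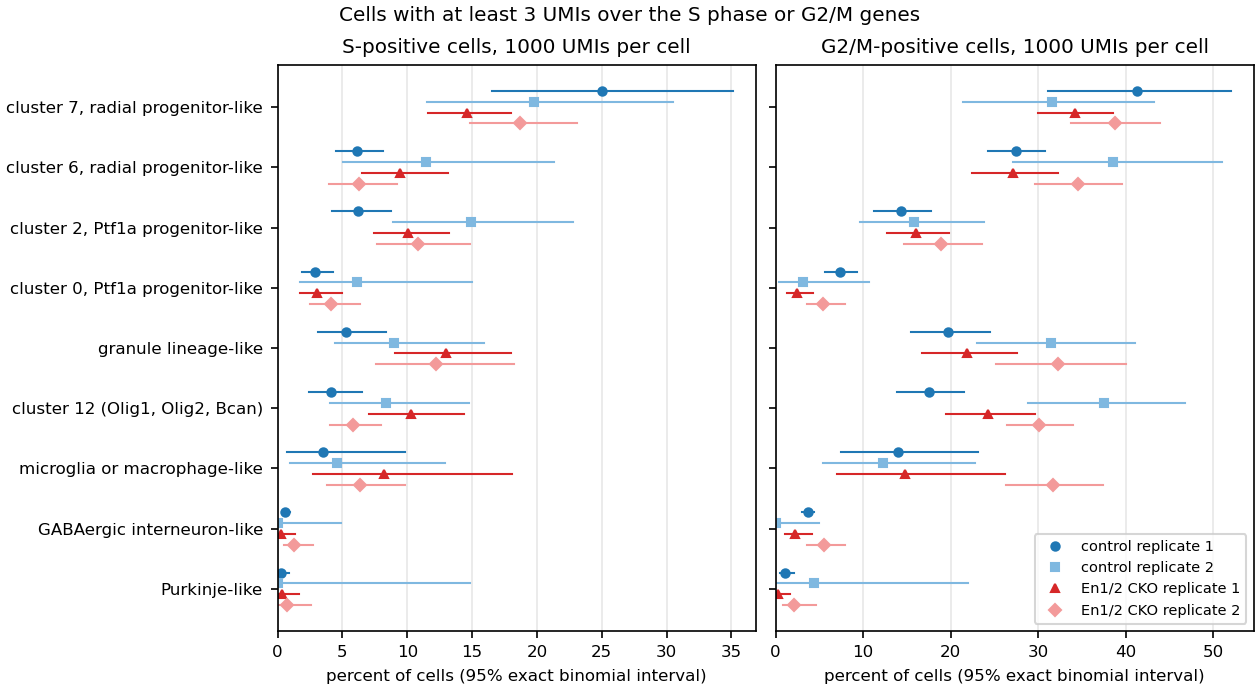
Percent of cells that were S-positive (left) or G2/M-positive (right) after thinning to 1000 UMIs per cell, by cluster or class (rows) and library (markers), with exact 95% binomial intervals as lines. G2/M-positive shares run from 31.6 to 41.3% in cluster 7 down to 0.304 to 4.35% in Purkinje-like cells, and the libraries of the 2 genotypes overlap in most rows of the right panel.

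Within single progenitor-like cells, genes of the same phase were found together more often than genes of different phases, with Rrm2 and Tyms between the groups. For each pair of genes the number of thinned cells with a UMI of both was divided by the number expected if the genes were independent within each library and cluster, for pairs with at least 5 cells expected. All 52 pairs of S phase genes were seen together more often than expected, at a median of 1.96 times, and all 244 pairs of G2/M genes, at a median of 3.06 times. Pairs of an S phase and a G2/M gene had a median of 1.13, with 157 of 239 above 1. The G2/M median was above the S phase median, and that above the mixed median, in control replicate 1 (2.26, 1.75 and 1.12), mutant replicate 1 (3.49, 2.00 and 1.23) and mutant replicate 2 (2.88, 1.64 and 1.07). In control replicate 2, which had 3 S phase pairs, the first 2 were equal at 2.26 and the mixed median was 1.496. The highest pairs were Aurkb with Plk1 at 5.45, Ccna2 with Aurka at 4.86 and Plk1 with Cenpe at 4.73. Among the replication genes Mcm6 with Ccne2 was highest at 4.32.

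The mixed pairs were not uniform. Mcm3 with Aurka was seen in 2 cells against 7.56 expected (0.265), Mcm4 with Aurka in 3 against 6.56 (0.458) and Mcm3 with Ccnb2 in 10 against 21.7 (0.460). These low pairs join helicase genes, which act from the start of S phase, with late mitotic genes, but rest on few cells. The highest mixed pairs were Mcm5 with Bub1, a spindle checkpoint kinase, at 2.49 (15 cells against 6.02) and Rrm2 with Top2a at 2.40 (156 against 64.9). Tyms with Plk1 followed at 2.33, so helicase genes stood at both ends of the range. Rrm2 was above 1 with all 23 G2/M genes, at a median of 1.86 (1.26 to 2.40), and Tyms with 22 of 23, at a median of 1.51. Among the other S phase genes the median with G2/M genes ran from 0.865 for Mcm4 to 1.29 for Pcna. Over all libraries together Ccnd1 was seen with S phase genes at a median of 1.35 and with G2/M genes at 1.05. The order was the reverse in control replicate 1 (1.06 and 1.18), and the values were 1.26 and 1.21 in mutant replicate 1 and 1.41 and 1.02 in mutant replicate 2. Cdkn1c was below 1 with each of the 23 G2/M genes, at a median of 0.892, and with each of the 11 S phase genes, at 0.941, over all libraries together. In control replicate 2 its median with S phase genes was 1.12. These ratios are descriptions over cells that share libraries.

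**Figure D4:**
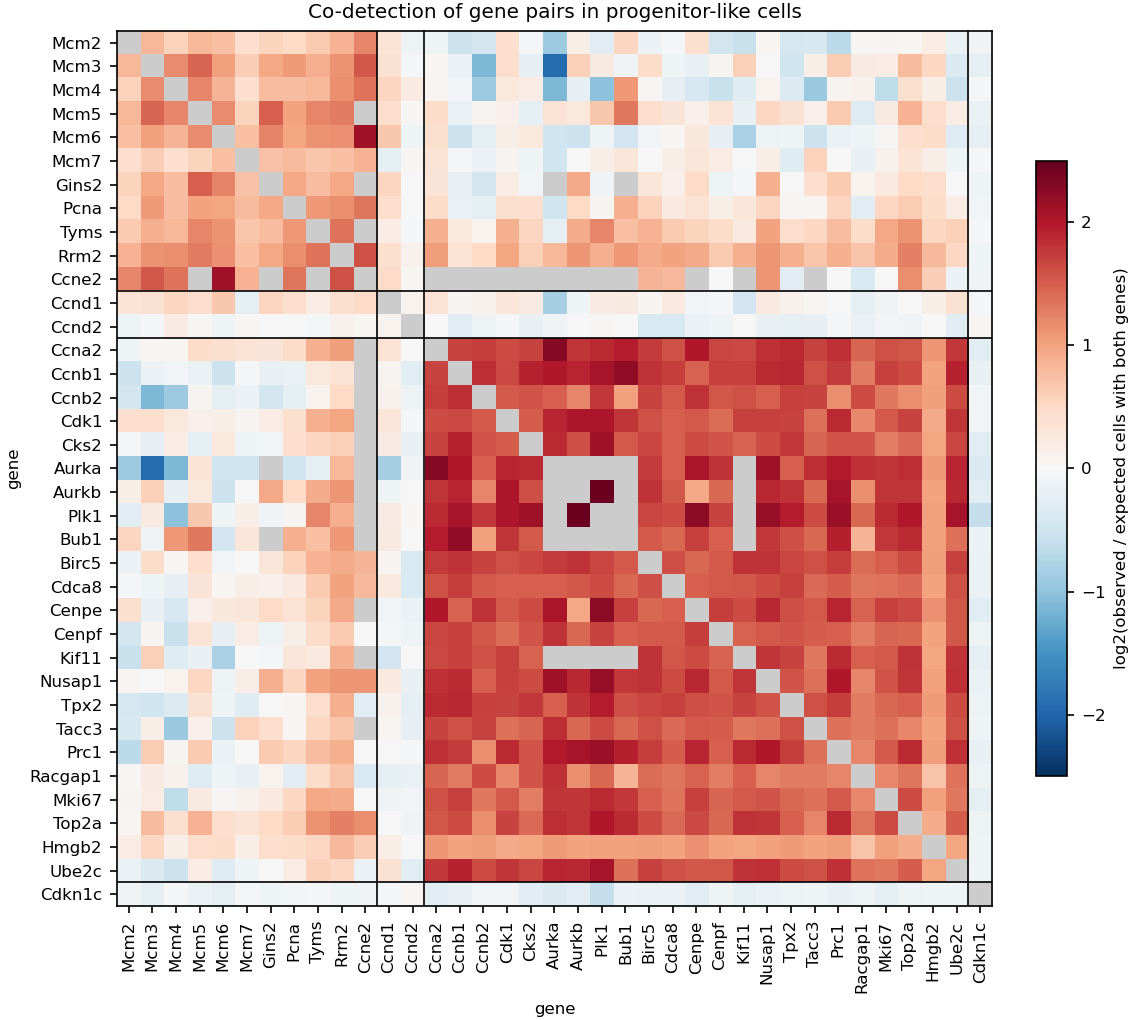
Log2 of observed over expected numbers of thinned progenitor-like cells with UMIs of both genes of a pair, all libraries together, with genes in the order of the heat map of levels; gray marks pairs with under 5 cells expected or none observed. The G2/M block is dark red, the S phase block lighter red, the mixed block mostly pale apart from red rows for Rrm2 and Tyms and blue cells for Mcm3 and Mcm4 against Aurka, and the Cdkn1c row is pale blue.

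Ccnd1 also varied between phase groups of radial progenitor-like cells, on few UMIs. Per 10000 UMIs, Ccnd1 was at 2.86, 1.67, 1.36 and 3.50 in cells positive for S phase only, at 1.37, 0.889, 1.16 and 1.23 in cells positive for G2/M only, and at 0.936, 0.943, 0.679 and 0.816 in cells with neither detected. Of these 3 kinds of cell it was highest in the S phase cells in every library. Only 42, 12, 59 and 60 cells were of that kind, with 12, 2, 8 and 21 Ccnd1 UMIs. Cells with some S phase or G2/M UMIs but under both cuts were at 1.03, 1.21, 1.16 and 0.841. Cells positive for both phases were at 0.714, 0, 2.64 and 1.75, above the S phase cells in mutant replicate 1. In all progenitor-like cells Ccnd2 was at 8.98, 19.1, 12.3 and 13.9 in cells with neither detected and at 4.89, 5.54, 1.58 and 2.74 in cells positive for G2/M only. Cdkn1c in the same cells was at 19.3, 11.1, 15.45 and 15.6 against 11.02, 2.14, 3.66 and 3.40. In each library both genes were higher where no S phase or G2/M UMI was seen, a split that also moves with the share of cluster 0 among those cells. Within radial progenitor-like cells alone Ccnd2 had no such step. It was at 2.16, 1.89, 0.893 and 1.38 with neither detected and at 2.41, 2.22, 1.04 and 1.19 with G2/M only. Radial Cdkn1c was at 10.6, 2.45, 2.75 and 2.86 against 8.68, 1.78, 2.24 and 2.12, a smaller step.

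The first genotype question was whether progenitor-like cells of mutants differed in these genes. No member passed edgeR's quasi-likelihood test, and no gene did among 12627 tested (0.0%), with 790 genes at an unadjusted p under 0.05 (6.26%), 4 of them members. DESeq2 called 6 genes and no member. The G2/M sum was 1824 and 3005 CPM in the control libraries against 3119 and 3033 CPM in the mutant libraries. The mutants lay close together and above both controls, and control replicate 1 was far below control replicate 2. The groups overlapped with the automatic doublet threshold (2136 and 3662 against 2591 and 2923 CPM), where the control mean was the higher, with doublets kept (1782 and 3602 against 2871 and 2884 CPM), with the stricter cell filter (2420 and 3007 against 2913 and 3066 CPM) and with cell cycle genes in the clustering (2206 and 4368 against 4018 and 4656 CPM). They did not overlap with resolution 2. Both mutant libraries were above both controls for 14 of the 37 members and below for none, against 20.8% of all genes above and 12.5% below. Of the 14, 11 were G2/M genes. Log2 fold changes were above 0 for 27 of the 37 members and for 44.9% of all genes. The median over the members was 0.19, and -0.05 over all genes tested. It was negative with cells of at least 2000 UMIs (-0.15), with Scrublet's automatic doublet threshold (-0.09) and without control replicate 1 (-0.03). The automatic threshold treated the genotypes by different rules: it removed 4.37% and 0.510% of the cells of the controls, while both mutants, where it marked almost none, kept the rate rule at 6.55% and 9.22%.

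Aurkb had the smallest p of the members. It was at 27.0 and 23.5 CPM in the control libraries and 47.6 and 44.7 CPM in the mutant libraries, so the groups did not overlap. Its log2 fold change was 0.82 (SE 0.21, edgeR adjusted p = 0.768). Ube2c, the ubiquitin-conjugating enzyme of the anaphase-promoting complex, was at 142 and 166 against 234 and 245 CPM (log2 fold change 0.59, SE 0.21, edgeR adjusted p = 0.768), and was near 0 with the automatic doublet threshold, at -0.01. Cdca8 was at 114 and 120 against 165 and 182 CPM (log2 fold change 0.52, SE 0.20), and Cks2, a Cdk-binding protein, at 40.0 and 81.2 against 129 and 113 CPM (log2 fold change 0.99, SE 0.39). The proliferation markers had smaller estimates: Mki67 had a log2 fold change of 0.21 (SE 0.31) and Top2a of 0.26 (SE 0.32), and the sign of both turned under several settings. Pcna stood at -0.16 (SE 0.44), Ccnd1 at 0.06 (SE 0.28), Ccnd2 at -0.25 (SE 0.35) and Cdkn1c at -0.18 (SE 0.43), and each of these turned sign without at least 1 library. The make-up of the class moved with these values. Its radial progenitor markers summed to 9017 CPM in control replicate 1 and to between 14965 and 21931 CPM in the other libraries, all 14 being detected. Cluster 7 made up 2.95% of progenitor-like cells in control replicate 1 and 14.5 to 20.4% elsewhere. Within cluster 7 the G2/M sum was 4275 and 3889 against 5260 and 5271 CPM, and within cluster 6 it was 2356 and 4095 against 2680 and 2643 CPM, where the groups overlapped. Markers of other cells moved too: the 6 erythroid genes summed to 3292, 56.7, 885 and 1470 CPM. The part of cell make-up and free RNA in the members' estimates was not tested.

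The 2 controls pulled in different directions. Without control replicate 2 the median log2 fold change of the members was 0.50, and -0.0045 over all genes tested. Without control replicate 1 the members' median was -0.03, and 0.02 over all genes tested. Pcna, Rrm2, Ccna2, Nusap1 and Tpx2 were higher in mutants in the first of these fits and lower in the second. Cdkn1c was the reverse, and Aurkb was higher in mutants in both. Each of these fits has 1 control library, which is assumed to vary like the mutants. The mutants varied less, with a coefficient of variation between libraries of 0.0775 against 0.348 between controls.

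In Purkinje-like cells the members leaned the other way, again without a call. edgeR called 2 of 8902 genes (0.0225%), neither of them a member, and 289 genes had an unadjusted p under 0.05 (3.25%), 3 of them members. Both mutant libraries were below both controls for 15 of the 37 members and above for 1, against 9.45% of all genes below and 16.5% above. With no filter on low counts 32 of the 37 log2 fold changes were below 0, with a median of -0.47. The median over all 16279 genes of that fit was -0.00066. With the filter 27 members were tested, 25 below 0 and 2 above, against 49.7% of all genes below and 50.3% above, and nothing is read from this count since members passed through libraries where they were high. On simulated data for this class edgeR recovered 8.42% of 2-fold and 76.9% of 4-fold changes.

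Racgap1, a GTPase-activating protein of the cytokinetic midzone, was at 49.99 and 39.8 CPM in the control libraries and 19.9 and 21.7 CPM in the mutant libraries. The groups did not overlap, although control replicate 2 held few UMIs, and the log2 fold change was -1.22 (SE 0.39, edgeR adjusted p = 1.00). Ccnd2 was at 197 and 106 against 63.3 and 102 CPM (log2 fold change -1.05, SE 0.37). Cenpf, a kinetochore protein, was at 36.0 and 119 against 9.93 and 21.7 CPM (log2 fold change -1.55, SE 0.55). Cenpf lies on chromosome 1, as do Mcm3, Mcm6 and the floxed En1, and Mcm7, Tacc3 and Tyms lie on chromosome 5 with En2; for these members the effects of DNA linked to the floxed alleles and of the deletion cannot be told apart. Mcm2 was at 22.8 and 13.3 against 13.6 and 5.10 CPM (log2 fold change -1.20, SE 0.57), where the groups overlapped. Top2a had a log2 fold change of -0.75 (SE 0.62), Pcna -0.38 (SE 0.42), Ccnd1 -0.24 (SE 0.44) and Cdkn1c -0.75 (SE 0.45), which was 0.47 without control replicate 1. Mki67 did not pass the filter. Without control replicate 1 edgeR called 235 genes, of the members Cenpf, and without control replicate 2 it called 196 genes, of the members Ccnd2, Cdkn1c and Racgap1, all lower in mutants. Markers of progenitors moved with these genes: the 11 Ptf1a progenitor markers, all detected, summed to 613 and 557 CPM in the control libraries and 393 and 388 CPM in the mutant libraries, and the 14 radial progenitor markers to 2237 and 2652 against 1355 and 2268 CPM. The 10 Purkinje markers were also lower in both mutants, at 3095 and 3395 against 4300 and 6551 CPM. The part of progenitor RNA in the members' estimates was not tested.

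**Figure D5:**
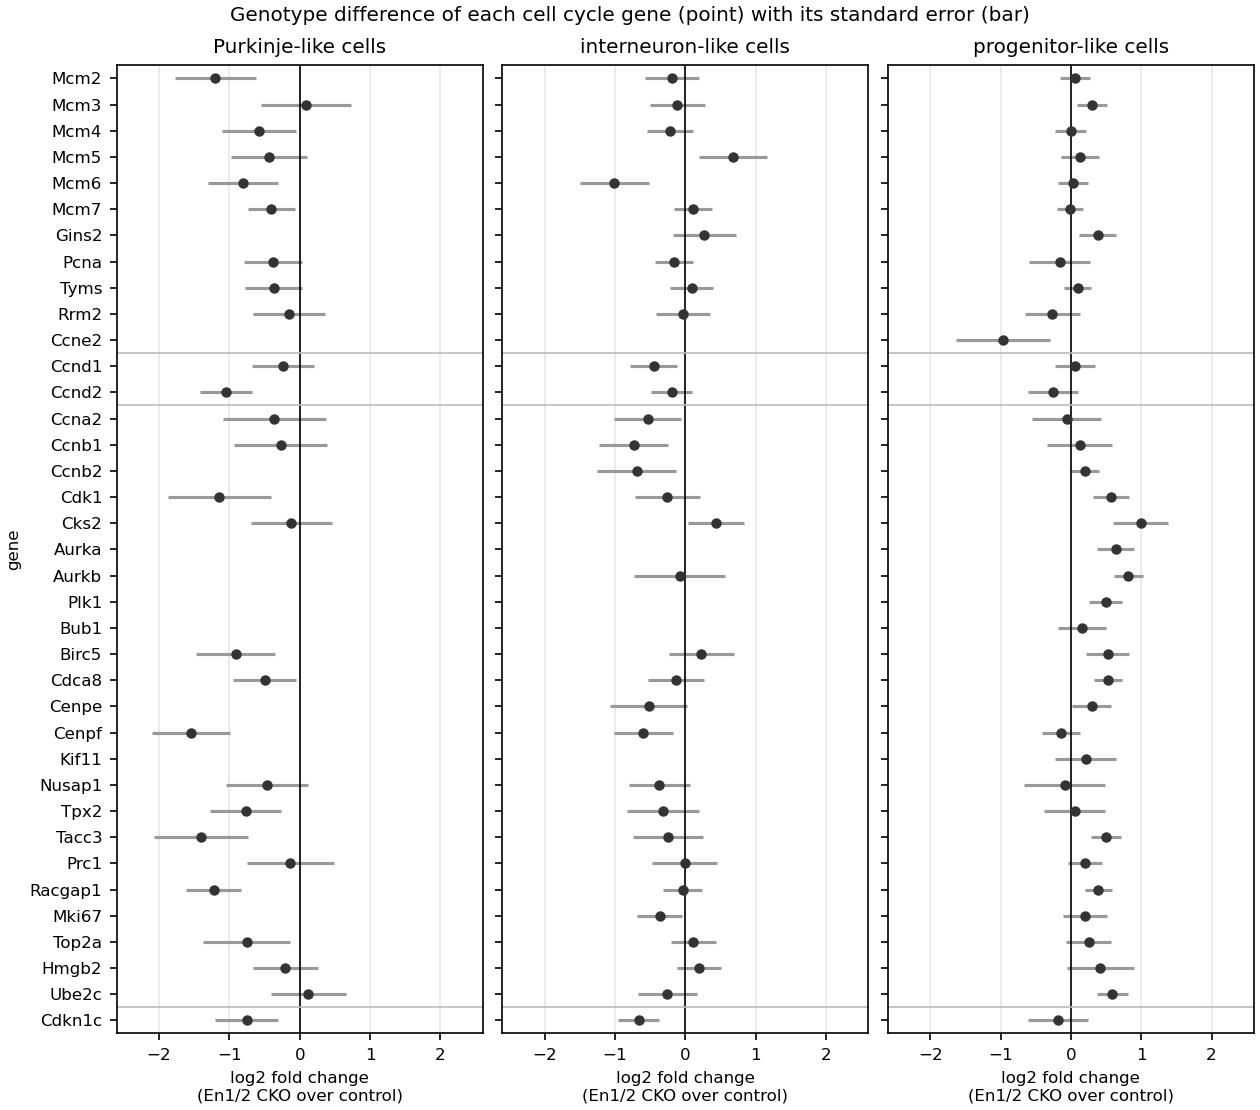
Log2 fold change of En1/2 CKO over control (points) with its standard error (bars) for each cell cycle gene (rows) in each of 3 classes (Purkinje-like, progenitor-like and interneuron-like), from edgeR; a missing point did not pass the filter. Purkinje-like points lie mostly left of 0, progenitor-like G2/M points mostly right of it, and no member passes the adjusted threshold in any panel. Nothing is read from the side of the Purkinje-like points, since members passed the filter through libraries where they were high.

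A few Purkinje-like cells held a share of the class's G2/M signal that varied between libraries. They were picked by these same UMIs without thinning, so a raised share follows from the choice. Cells with at least 3 G2/M UMIs numbered 37 of 945, 2 of 27, 3 of 422 and 27 of 437, and held 18.01%, 77.9%, 6.95% and 41.6% of the class's G2/M UMIs. Without them the G2/M sum was 439 and 270 against 218 and 370 CPM, and the groups overlapped, as they did with them. The 2 cells of control replicate 2 were deep, with a median of 6236.5 UMIs against 2698 in the other cells. The S phase sum was 296 and 411 against 211 and 250 CPM with the cells of at least 3 G2/M UMIs. Without them it was 290 and 254 against 204 and 233 CPM, so both mutant libraries stayed below both controls. Control replicate 2 held 75414 UMIs in its 27 Purkinje-like cells, so the order of 254 and 233 CPM rests on few UMIs. The cells with at least 3 G2/M UMIs kept Purkinje markers, at 4725, 6494, 2676 and 2882 CPM against 4279, 6562, 3098 and 3455 CPM in the others. Their Ptf1a progenitor markers were at 759, 1283, 472 and 537 CPM against 606, 413, 393 and 370 CPM, higher in every library. Their radial progenitor markers were at 2076, 3928.5, 1102 and 2454 CPM against 2245, 2399, 1357 and 2246.5 CPM. These were lower in control replicate 1 and mutant replicate 1 and higher in control replicate 2 and mutant replicate 2. The values of control replicate 2 and mutant replicate 1 rest on 2 and 3 cells. Whether the cells with at least 3 G2/M UMIs are doublets was not tested beyond the Scrublet score. Its median was 0.0895, 0.108, 0.0557 and 0.129 against 0.0919, 0.0507, 0.0404 and 0.0788.

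In interneuron-like cells no gene was called by edgeR among 9277 (0.0%), with 280 at an unadjusted p under 0.05 (3.02%), and DESeq2 called 1 gene and no member. Both mutant libraries were below both controls for 5 of the 37 members and above for 3, against 9.05% of all genes below and 17.5% above. Cdkn1c had the smallest p: 2143 and 2254 CPM in the control libraries and 1554 and 1344 CPM in the mutant libraries, groups that did not overlap, with a log2 fold change of -0.66 (SE 0.29, edgeR adjusted p = 1.00). Mcm6 was at 25.2 and 20.5 against 5.79 and 18.8 CPM (log2 fold change -1.01, SE 0.49). Ccnb1, a mitotic cyclin, and Cenpf had log2 fold changes of -0.74 (SE 0.50) and -0.59 (SE 0.42), both positive without control replicate 1. Estimates for the other named members were Mki67 -0.36 (SE 0.32), Top2a 0.11 (SE 0.32), Pcna -0.16 (SE 0.27), Ccnd1 -0.45 (SE 0.34) and Ccnd2 -0.19 (SE 0.30). With no filter 29 of the 37 estimates were below 0, with a median of -0.25, against -0.029 over all 17047 genes of that fit. With the filter 32 members were tested, 24 below 0 and 8 above, against 51.4% and 48.6% of all genes, and nothing is read from that count for the reason given for Purkinje-like cells. The median over these members was -0.19 and turned positive without control replicate 1 (0.49) or mutant replicate 1 (0.17). Without control replicate 2 the members' median was -0.28, against 0.0096 over all genes tested. Cdkn1c was lower in mutants with either control left out. The 14 radial progenitor markers in this class summed to 2621 and 1499 against 1802 and 3467 CPM, and their part was not tested.

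Whether the genotype difference itself differed between Purkinje-like and progenitor-like cells was tested with an interaction term, the library being a block. edgeR called 122 of 10960 genes (1.11%), 30 of them lower in Purkinje-like cells (0.274%). Of the 37 members 5 were called, all lower in Purkinje-like cells. Of the 37 estimates 35 were below 0, against 44.3% of all genes. The median over members was -0.92, and 0.07 over all genes. Nothing is read from this count of signs, since members could pass the filter through progenitor-like cells, where they were high. In Purkinje-like cells alone 27 of them passed it. With no filter on low counts 35 of the 37 were also below 0. The median of that fit was -1.03 over members and -0.043 over all genes. Both classes come from the same libraries, and the direction in each class is the one given above.

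Racgap1 (GRCm38 chr15:99620496-99651656) had the smallest p, with a difference of log2 fold changes of -1.61 (SE 0.37, edgeR adjusted p = 0.00334): it was lower in mutant Purkinje-like cells and at 73.8 and 70.4 against 94.7 and 100.4 CPM in progenitor-like cells. Ccnd2 (chr6:127125162-127152188) had -1.11 (SE 0.28, edgeR adjusted p = 0.0122), but 0.39 without control replicate 1. Cenpf (chr1:189640606-189688107) had -1.56 (SE 0.41, edgeR adjusted p = 0.0159), with 205 and 288 against 245 and 217 CPM in progenitor-like cells. Birc5 (chr11:117849237-117855743), survivin of the chromosomal passenger complex, had -1.76 (SE 0.46, edgeR adjusted p = 0.0177): 23.5 and 26.5 against 6.20 and 19.1 CPM in Purkinje-like cells and 66.3 and 109 against 124 and 132 CPM in progenitor-like cells. Hmgb2 (chr8:57511843-57515999), named because it passed, had -1.08 (SE 0.29, edgeR adjusted p = 0.0207). Of the other named members, none of which passed, Top2a had -1.31 (SE 0.42), Mki67 -0.92 (SE 0.57), Pcna -0.66 (SE 0.32), Ccnd1 -0.50 (SE 0.38) and Cdkn1c -0.43 (SE 0.25).

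These calls depended on the libraries and on the handling of doublets and clusters. Without control replicate 2 the calls were Ccnd2 and Racgap1, and without control replicate 1, mutant replicate 1 or mutant replicate 2 there was no member called. With Scrublet's automatic threshold Racgap1 alone was called. That threshold altered doublet removal in the controls only, but all cells were clustered and named anew. Progenitor-like cells then numbered 862, 454, 1762 and 1560. No member was called with doublets kept, with the stricter cell filter, with cells of at least 2000 UMIs or with DESeq2. There edgeR's or DESeq2's adjusted p of Racgap1 was 0.269, 0.270, 0.952 and 1.00. Over all alternatives it ran from 0.00260 to 1.00. Allowing cell cycle genes in the clustering gave 9 members and leaving cluster 0 out of the progenitor-like class gave 6, in both cases without Ccnd2.

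Other genes of the cycle were read from the same fits. In progenitor-like cells 22 of 31 other S phase genes and 36 of 55 other G2/M genes had positive log2 fold changes, with medians of 0.16 and 0.06 against -0.05 over all genes, and none was called. Among 26 regulators of the G1 to S transition, such as E2F, Rb and Myb family genes, 12 were positive. In the interaction 25 of 30 other S phase genes and 46 of 54 other G2/M genes tested were below 0, with medians of -0.48 and -0.61. Nothing is read from these counts, for the reason given for the members. None of these S phase and G2/M genes was called, while 2 of 24 regulators of the G1 to S transition were. They were Cdk6, a kinase partner of D-type cyclins, at -2.55 (SE 0.70, edgeR adjusted p = 0.0307), and the D-type cyclin Ccnd3 at -1.55 (SE 0.43, edgeR adjusted p = 0.0332). Of 8 other cell cycle exit genes tested, such as Cdkn1a and Btg2, 4 were below 0 and 4 above.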

How the data were processed

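UMI counts per gene and cell barcode were deposited by the authors as raw matrices with no normalisation, and the other deposited files hold barcodes and gene names as text. Cell Ranger 6.1.0 and mm10 are given per the submitters' processing notes. Whether intron reads were counted, and how reads shared by related genes were treated, is not given in the sources used here. Strand and pseudogene copies of members were not examined.

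Barcodes under 500 genes or over 10% mitochondrial UMIs were left out, and the highest Scrublet scores were removed at 0.8% per 1000 barcodes in each library. Scanpy 1.11.5 (Python 3.11.15) gave Leiden clusters at resolution 1 from 2000 variable genes without cell cycle genes, 30 components and 15 neighbours. A cluster was named where at least 3 markers of a list were raised 1.5-fold. Names are rebuilt, not the authors'. UMIs were summed per library and class and tested with edgeR 4.0.16 in R 4.3.3 (TMM, filterByExpr, quasi-likelihood test, Benjamini-Hochberg threshold 0.05). CPM is UMIs per 1000000 UMIs of the class. DESeq2 1.42.0, RLE size factors, no filter, 1000 genes with 5% mitochondrial UMIs, doublets kept, other doublet and clustering settings, cells of at least 2000 UMIs, a replicate block and each library left out were alternatives, and a crossed pairing and leaving out cluster 0 were chosen after seeing the data. The edgeR script was tested on simulated data.

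Log2 fold changes were named for Pcna, Mki67, Top2a, Ccnd1, Ccnd2 and Cdkn1c and for the 4 members with the smallest unadjusted p in each class, and others are said to be named for passing. In other lists the 2 genes with the smallest p could be named. Members and lists were chosen with earlier results of these data known. Gene positions are from GENCODE for GRCm38.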

Additional observations from a re-analysis of the deposited data

Results flagged for a closer look

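For 5 members the genotype difference in Purkinje-like cells differed from that in progenitor-like cells by the interaction test, each being lower in Purkinje-like cells. The difference of log2 fold changes was -1.61 for Racgap1, which acts in cytokinesis, -1.76 for Birc5 of the chromosomal passenger complex and -1.56 for the kinetochore gene Cenpf. It was -1.11 for Ccnd2 and -1.08 for Hmgb2. In progenitor-like cells alone, Racgap1 had a log2 fold change of 0.39 (SE 0.19) and Birc5 of 0.52 (SE 0.31), and neither passed. No call of these 5 held with DESeq2, and the progenitor markers that moved with them in Purkinje-like cells are given beside the result.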

How the results depend on the processing

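Of the values for single genes under alternatives, 438 kept their direction and side of the threshold, 43 lost the call, 20 gained one and 40 reversed. Only the 5 members called by the interaction had a call to lose, and the 43 losses were theirs. For the other genes, keeping the side of the threshold meant staying without a call. Except where stated the cause was not tested. Genes called in Purkinje-like cells were 16 with no filter, 5 with the stricter cell filter and 0 with cells of at least 2000 UMIs. In interneuron-like cells they were 1 with DESeq2 and 14 with no filter, and in progenitor-like cells 6 with DESeq2 and 93 with no filter. The interaction called 2 genes with DESeq2, 10 with the stricter cell filter, 39 with doublets kept, 12 with the automatic doublet threshold, 48 with cell cycle genes in the clustering, 13 with cells of at least 2000 UMIs and 188 without cluster 0.

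Replicate numbers did not pair the libraries. For each gene the log2 CPM of replicate 2 was subtracted from that of replicate 1, in controls and in mutants. Over genes these control and mutant differences correlated at 0.044, -0.178 and -0.213 in the Purkinje-like, interneuron-like and progenitor-like classes. With the number as a replicate block 6, 2 and 0 genes were called, no member among them, and Top2a in interneuron-like cells was at -0.068. With the pairing crossed, 2, 9 and 7 genes were called, and the interneuron-like median of members was 0.061.

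In Purkinje-like cells Pcna was at 0.10 with the stricter filter, and with doublets kept Top2a was at 0.19 and Ccnd1 at 0.067. In interneuron-like cells Top2a was at -1.19 (stricter filter), -0.96 (doublets kept), -0.13 (automatic threshold), -0.66 (cell cycle genes in the clustering), -0.073 (resolution 2) and -0.80 (cells of at least 2000 UMIs). Ccnd2 there was at 0.31, 0.18, 0.30 and 0.23 with the stricter filter, doublets kept, cell cycle genes and resolution 2, and Pcna at 0.077 with cells of at least 2000 UMIs. In progenitor-like cells the members' median was 0.039 with doublets kept, -0.088 with the automatic threshold and -0.15 with cells of at least 2000 UMIs. There Ccnd2 was at 0.26 with the stricter filter, and Top2a at -0.11, -0.27 and -0.045 with doublets kept, the automatic threshold and cells of at least 2000 UMIs. The automatic threshold put Mki67 at -0.023 and Ube2c at -0.011, and cells of at least 2000 UMIs put Mki67 at -0.022, Ccnd1 at -0.19 and Cdkn1c at 0.0066.

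With 1 library left out, genes called ran from 2 to 235 in Purkinje-like, 0 to 545 in interneuron-like and 0 to 3791 in progenitor-like cells and from 0 to 69 in the interaction. The members' medians ran from -1.16 to -0.32, -0.60 to 0.49, -0.035 to 0.50 and -1.60 to -0.61. Single genes that reversed ran in interneuron-like cells from -1.32 to 0.97 (Ccnb1), -1.11 to 0.67 (Cenpf), -0.46 to 0.080 (Ccnd2), -0.46 to 0.0019 (Mki67), -0.22 to 0.12 (Pcna) and -0.33 to 0.40 (Top2a). In progenitor-like cells they ran from -0.27 to 0.41 (Ccnd1), -0.63 to 0.27 (Ccnd2), -0.67 to 0.55 (Cdkn1c), -0.13 to 0.73 (Mki67), -0.71 to 0.61 (Pcna) and -0.12 to 0.73 (Top2a). Cdkn1c in Purkinje-like cells ran from -1.29 to 0.47 and Ccnd2 in the interaction from -1.54 to 0.39.

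Mean shares of radial progenitor-like cells were 11.1% (control) and 11.5% (mutant) for S phase and 29.985% and 32.4% for G2/M. The cut and the depth set their size: thinning to 2000 UMIs gave 32.1%, 26.7%, 47.7% and 42.6%, at least 2 UMIs gave 20.5%, 22.5%, 39.9% and 40.2%, and at least 5 UMIs gave 2.83%, 3.14%, 21.6% and 24.5%. With doublets kept the mutant S phase share was 8.48% and the G2/M shares 24.4% and 24.9%. With cell cycle genes in the clustering the mutant S phase share was 12.4% and the G2/M shares 47.3% and 52.4%. The 27 Purkinje-like cells of control replicate 2 limit every Purkinje-like value.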
